A study of Mus musculus with 24 samples.

Results

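Bile acid synthesis and transport was followed in mouse liver through 10 genes: Cyp7a1, Cyp8b1, Cyp27a1 and Cyp7b1 of synthesis, Baat of conjugation, the transporters Slc10a1, Abcb11 and Slco1a1, and the nuclear receptors Nr1h4 and Nr0b2. They were chosen by symbol, as known genes of this pathway, with earlier results of these data known. Each symbol matched 1 of the 41388 annotated genes in the count tables. All 10 passed the filter on low counts, a minimum of 1 CPM (reads of a gene scaled to a common library size) exceeded by 4 or more of the 20 mice, which kept 13052 genes for testing.

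The livers came from male mice on the C57BL/6J background. Wildtype (WT) controls carried floxed Lpin1 alleles without Cre. Adn-Lpin1-/- littermates carried the same floxed alleles and Cre under the adiponectin promoter, which deletes Lpin1, the gene of the phosphatidate phosphatase lipin 1, in adipocytes and not in hepatocytes. Lpin1 mRNA in liver is therefore no check of the genotype labels. Mice of both genotypes were given a low-fat diet (LFD, 10% of energy from fat) or a high-fat diet (HFD, 60%) from 8 weeks of age and were fasted for 4 hours before tissue was taken. The labels give 16 weeks of diet and the study's methods 5 weeks. Each of the 4 groups held 5 mice, with 1 RNA-seq library per mouse, and a sixth library per group was, by its label, a pool of those same mice.

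Hepatocytes make bile acids from cholesterol by a classic route that starts with Cyp7a1 and by an alternative route in which Cyp27a1 and then Cyp7b1 act. Bile acids are joined to taurine, pumped into bile, taken up again in the gut and extracted from portal blood by hepatocytes. Bile acids that return activate the receptor FXR, the product of Nr1h4, which raises SHP, the product of Nr0b2, and by this and other paths holds synthesis down.

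Total counts per mouse ran from 36260187 to 81072794 and were lowest in the WT LFD group (36260187 to 45999456). The lowest count of any of the 10 genes in any library was 507, for Cyp7a1, so counting error was small beside the spread between mice. The 10 hepatocyte marker genes summed to 85511 to 135015 CPM in each library, whereas 10 cholangiocyte markers summed to 41.8 to 116 CPM.

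Per kilobase of exon the order of the levels ran from Slc10a1 (mean 509 ± 92.4 RPKM, SD, n = 20 mice) through Cyp27a1 (235 ± 38.0), Cyp8b1 (148 ± 53.7), Baat (82.0 ± 10.2), Abcb11 (81.4 ± 13.4), Slco1a1 (63.6 ± 17.4), Nr1h4 (60.0 ± 9.40), Cyp7b1 (59.1 ± 26.4) and Nr0b2 (31.4 ± 10.7) to Cyp7a1 (17 ± 12.8). Baat and Abcb11 differed by less than their spread, as did Slco1a1, Nr1h4 and Cyp7b1. Cyp7a1 was the lowest of the 10 and varied most, with its highest mouse 19.8-fold above its lowest, whereas Baat varied least, by 1.54-fold.

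**Figure D1:**
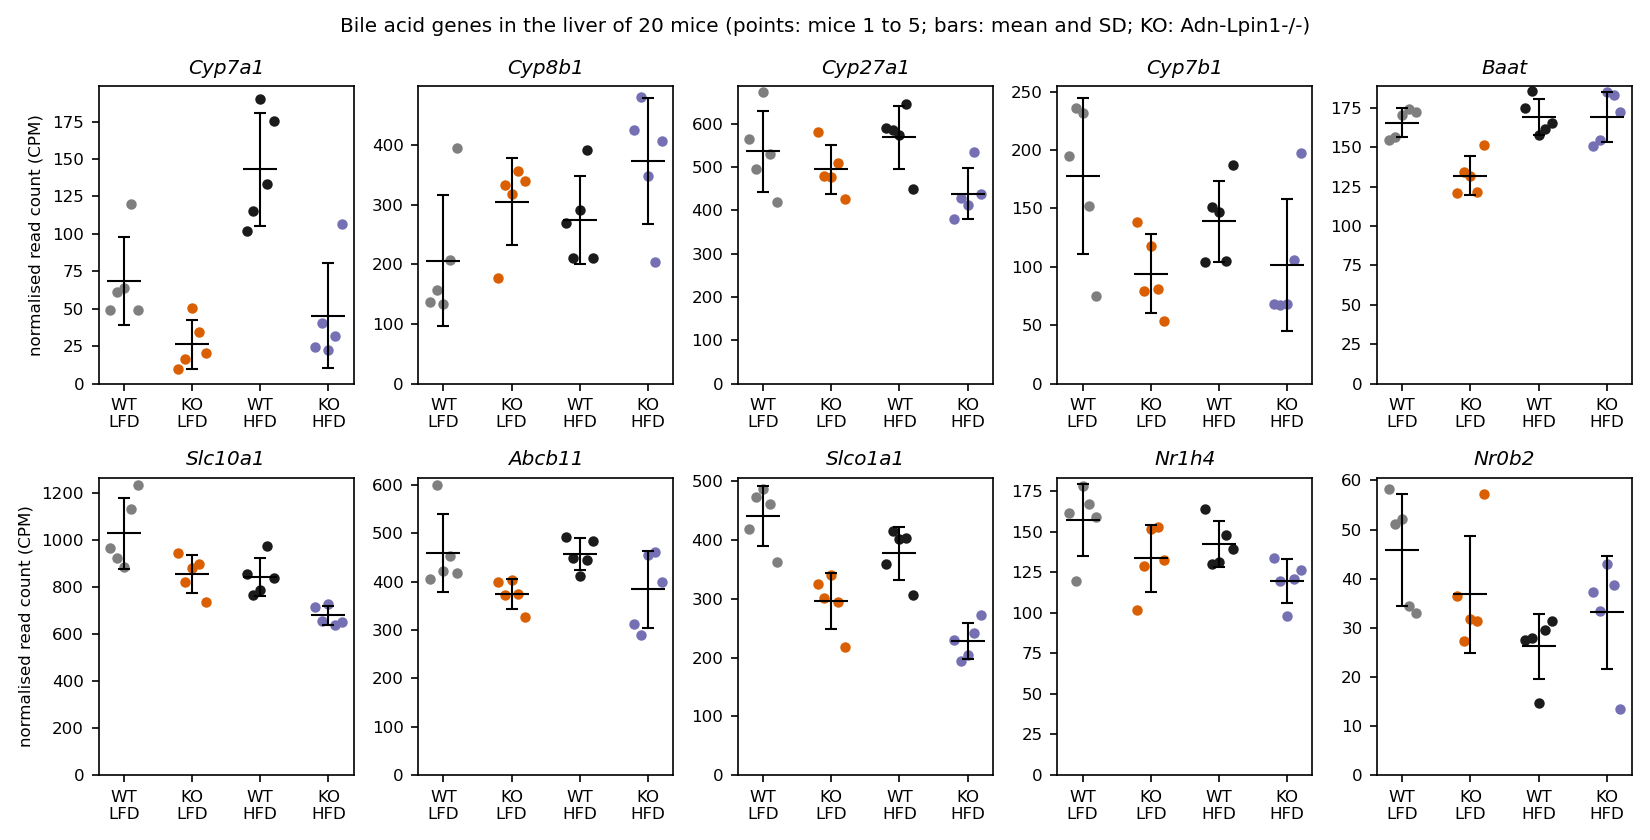
Normalised read count (CPM, TMM-scaled, linear axes from 0) of the 10 genes in each mouse, with 1 point per mouse, a bar for the group mean and whiskers for the SD, in WT and Adn-Lpin1-/- (KO) livers on the LFD and the HFD. Slco1a1 lay between 218 and 341 CPM in Adn-Lpin1-/- mice on the LFD, below all 5 WT mice (363 to 487), and Cyp7a1 was lower in Adn-Lpin1-/- livers on both diets.

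Deletion of Lpin1 in adipocytes went with lower hepatic expression of several of these genes. On the LFD, Cyp7a1, Baat and Slco1a1 were lower in Adn-Lpin1-/- livers, and on the HFD Cyp7a1, Cyp27a1, Slc10a1 and Slco1a1 were. None was called higher on either diet by edgeR. Cyp7a1 fell most, with changes of −61.6% under LFD feeding and −68.3% under HFD feeding, and Slco1a1 fell on both diets without overlap between genotypes. Cyp8b1, the sterol 12α-hydroxylase, pointed the other way on both diets without passing edgeR's test, though voom with quality weights called it higher on the LFD.

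These calls come from edgeR's quasi-likelihood test over all 13052 genes, with a Benjamini-Hochberg adjusted p of 0.05 or less. On the LFD 3 of the 10 genes were called, all lower, against 14.4% of all genes called and 8.11% called lower. On the HFD 4 of the 10 were called, all lower, against 18.6% of all genes called and 8.78% called lower. The log2 fold change (Adn-Lpin1-/- minus WT) was negative for 9 of the 10 on the LFD and 8 of the 10 on the HFD, with medians of −0.30 and −0.28. Over all genes the medians were 0.0065 and 0.0023.

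The direction of small changes depended on how libraries were scaled. With library totals in place of TMM scaling, an alternative added after the data were seen, the median of all genes moved to 0.10 on the LFD and 0.13 on the HFD. Of the genes then called, 1568 were higher and 583 lower on the LFD (818 and 1059 with TMM), and 2748 and 430 on the HFD (1288 and 1146 with TMM). Among the 10 genes Cyp7a1, Baat and Slco1a1 were still called lower on the LFD, and Cyp7a1 and Slco1a1 on the HFD, while Slc10a1 (−0.18, adjusted p = 0.16 by edgeR) and Cyp27a1 (−0.25, adjusted p = 0.102 by edgeR) were not.

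**Figure D2:**
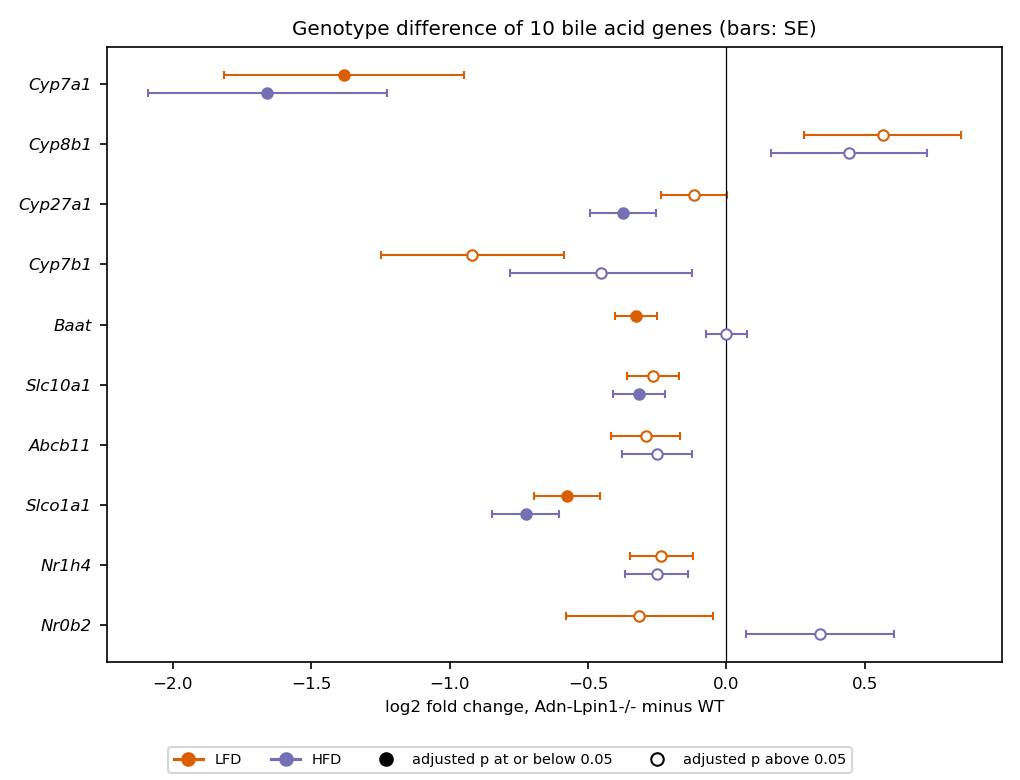
Log2 fold change, Adn-Lpin1-/- minus WT, of the 10 genes on the LFD and the HFD with its standard error, filled where the adjusted p was 0.05 or less. Filled points all lie to the left of 0, from Cyp7a1 at −1.66 on the HFD to Slc10a1 at −0.31 on the HFD, and Cyp8b1 is the only gene to the right of 0 on both diets.

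Cyp7a1, cholesterol 7α-hydroxylase, catalyses the rate-limiting step of the classic route (GRCm38 chr4:6265612-6275633, minus strand). On the LFD the 5 WT livers held 48.9, 61.1, 64.1, 119.7 and 49.2 CPM and the 5 Adn-Lpin1-/- livers 9.60, 16.7, 50.7, 34.5 and 20.1 CPM. The groups overlapped through mouse 3 of the Adn-Lpin1-/- group, which lay above the 2 lowest WT mice, while the other 4 lay below all WT mice.

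On the HFD Cyp7a1 stood at 102, 115, 189.8, 133 and 175 CPM in WT and at 24.7, 40.4, 22.5, 31.9 and 107 CPM in Adn-Lpin1-/- mice. Again 4 of 5 Adn-Lpin1-/- mice lay below every WT mouse, and mouse 5 lay inside the WT range. The log2 fold change of Cyp7a1 was −1.38 ± 0.43 on the LFD (± SE, adjusted p = 0.0374 by edgeR) and −1.66 ± 0.43 on the HFD (adjusted p = 0.0128 by edgeR). The LFD call was lost when WT mouse 2, 3 or 4 or Adn-Lpin1-/- mouse 1, 2 or 5 of that diet was left out (adjusted p 0.0536 to 0.114 by edgeR, log2 fold change −1.42 to −1.08), and with the GC content and length trend removed (−1.24, adjusted p = 0.0604 by edgeR). Leaving out Adn-Lpin1-/- HFD mouse 5 moved the HFD value to −2.26, and the HFD call held without any 1 mouse (adjusted p 0.0011 to 0.0353 by edgeR).

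Cyp8b1 adds the 12α-hydroxyl group that sets how much cholic acid is made (GRCm38 chr9:121914356-121916305, minus strand, 1 exon). On the LFD WT livers held 138, 157, 133, 207 and 395 CPM, and Adn-Lpin1-/- livers 176, 333, 317, 357 and 339.7 CPM. The groups crossed at 1 mouse each, WT mouse 5 being the highest of all 10 and Adn-Lpin1-/- mouse 1 lying below WT mouse 4. The log2 fold change of 0.56 ± 0.28 did not pass the test (adjusted p = 0.195 by edgeR), and it became 0.94 (adjusted p = 0.0134 by edgeR) without WT mouse 5. With all mice, voom with quality weights called Cyp8b1 higher on the LFD (0.80, adjusted p = 0.0292 by voom).

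On the HFD Cyp8b1 was at 269, 211, 290.4, 392 and 210.1 CPM in WT and 426, 480.0, 349, 203 and 406 CPM in Adn-Lpin1-/- mice, with 3 Adn-Lpin1-/- mice above all WT mice and mouse 4 below them all (0.44 ± 0.28, adjusted p = 0.289 by edgeR). Set beside Cyp7a1 in the same liver, Cyp8b1 was 5.50-fold more abundant per kilobase in the median WT mouse on the LFD (range 3.70 to 17.2) and 36.2-fold in the median Adn-Lpin1-/- mouse (13.4 to 42.8). On the HFD the median ratio was 3.90 in WT (2.57 to 6.29) and 25.4 in Adn-Lpin1-/- livers (8.14 to 36.9), and the groups did not overlap. This ratio, which does not depend on library scaling, was chosen after the values of both genes were seen and was not tested.

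Cyp27a1, the mitochondrial sterol 27-hydroxylase of the alternative route (GRCm38 chr1:74713574-74737892, plus strand), was at 566, 495, 673, 530.3 and 419.9 CPM in WT and 581, 481, 477, 509 and 426 CPM in Adn-Lpin1-/- livers on the LFD, which overlapped widely (−0.12 ± 0.12, adjusted p = 0.553 by edgeR). On the HFD it was at 591, 585, 574, 646 and 449.9 CPM in WT and 380.2, 429, 413, 535 and 439 CPM in Adn-Lpin1-/- livers. Only Adn-Lpin1-/- mouse 4 rose above the lowest WT mouse there, and Cyp27a1 fell by 0.37 ± 0.12 on the log2 scale (adjusted p = 0.0364 by edgeR). That call was lost without any 1 of 8 of the HFD mice, Adn-Lpin1-/- mouse 1, 2, 3 or 5 or WT mouse 1, 2, 3 or 4 (adjusted p 0.0535 to 0.0903 by edgeR, log2 fold change −0.38 to −0.33).

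Cyp7b1, the oxysterol 7α-hydroxylase that follows Cyp27a1 (GRCm38 chr3:18071950-18243338, minus strand), stood at 195, 236, 232, 152 and 74.9 CPM in WT and 138, 79.2, 118, 81.3 and 53.7 CPM in Adn-Lpin1-/- livers on the LFD. WT mouse 5 lay among the Adn-Lpin1-/- mice and the other 4 WT mice lay above them. The log2 fold change of −0.92 ± 0.33 missed the threshold (adjusted p = 0.0675 by edgeR). It passed without WT LFD mouse 5 (−1.11, adjusted p = 0.0205 by edgeR) or Adn-Lpin1-/- LFD mouse 1 (−1.10, adjusted p = 0.0402 by edgeR). Through the shared spread it also passed without Adn-Lpin1-/- HFD mouse 5 (−0.92, adjusted p = 0.0328 by edgeR). With all mice it passed by voom with quality weights (−0.96, adjusted p = 0.0243 by voom) and with the pools added.

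On the HFD Cyp7b1 was at 104, 151, 146, 105 and 187 CPM in WT and 68.5, 67.3, 68.2, 105 and 198 CPM in Adn-Lpin1-/- livers (−0.45 ± 0.33, adjusted p = 0.353 by edgeR). Adn-Lpin1-/- mouse 5 was the highest of all 10 HFD mice. Without it the value was −0.84 (adjusted p = 0.054 by edgeR).

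Baat joins bile acids to taurine (GRCm38 chr4:49489422-49506557, minus strand). On the LFD WT livers held 155, 157, 171, 174 and 172 CPM and Adn-Lpin1-/- livers 121, 135, 132, 121 and 151 CPM. All 5 Adn-Lpin1-/- mice lay below all WT mice, and Baat fell by 0.33 ± 0.07 on the log2 scale (adjusted p = 0.0065 by edgeR), a call that held without any 1 mouse. On the HFD the genotypes were at the same level, 175, 186, 158, 162 and 165 CPM in WT and 151, 155, 185, 183 and 172 CPM in Adn-Lpin1-/- livers (log2 fold change −0.00062 ± 0.07, adjusted p = 0.997 by edgeR).

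Slc10a1 encodes NTCP, the sodium-dependent importer of conjugated bile acids at the blood side of the hepatocyte (GRCm38 chr12:80953185-80968079, minus strand). On the LFD it was at 965, 926, 884, 1134 and 1237 CPM in WT and 946, 819.8, 880.0, 898 and 736 CPM in Adn-Lpin1-/- livers, with 3 Adn-Lpin1-/- mice below every WT mouse (−0.27 ± 0.09, adjusted p = 0.0635 by edgeR). It passed there without WT LFD mouse 3 (−0.32, adjusted p = 0.0432 by edgeR) or Adn-Lpin1-/- LFD mouse 1 (−0.31, adjusted p = 0.0459 by edgeR). With all mice it passed there by DESeq2 (−0.26, adjusted p = 0.0417 by DESeq2) and with the pools added.

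On the HFD Slc10a1 was at 856, 768, 789, 975 and 837 CPM in WT and 717, 658, 729.8, 639.5 and 653 CPM in Adn-Lpin1-/- livers. The groups did not overlap, and Slc10a1 fell by 0.31 ± 0.09 on the log2 scale (adjusted p = 0.0258 by edgeR). The call was lost without Adn-Lpin1-/- HFD mouse 2 (−0.30, adjusted p = 0.0619 by edgeR) or WT HFD mouse 4 (−0.27, adjusted p = 0.0635 by edgeR), and with the GC content and length trend removed (−0.26, adjusted p = 0.0642 by edgeR).

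Slco1a1 encodes Oatp1a1, a sodium-independent importer of organic anions including unconjugated bile acids, which is more abundant in male than in female mouse liver (GRCm38 chr6:141907282-141946962, minus strand). WT livers on the LFD held 419, 473, 487, 462 and 363 CPM and Adn-Lpin1-/- livers 325, 301, 341, 295 and 218 CPM. On the HFD the values were 359, 416, 402, 403 and 306 CPM in WT and 229.8, 194, 204, 241 and 272 CPM in Adn-Lpin1-/- livers. The genotypes did not overlap on either diet. The log2 fold change of Slco1a1 was −0.58 ± 0.12 on the LFD (adjusted p = 0.0036 by edgeR) and −0.73 ± 0.12 on the HFD (adjusted p = 0.00055 by edgeR), and both calls held in all 11 other fits and without any 1 mouse.

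Abcb11 encodes BSEP, the pump that moves bile salts into the canaliculus (GRCm38 chr2:69238282-69342616, minus strand). On the LFD it was at 406, 599.6, 421, 452 and 417 CPM in WT and 399.6, 373, 403, 374 and 326 CPM in Adn-Lpin1-/- livers. No Adn-Lpin1-/- mouse reached the lowest WT mouse, but the gap was narrow, and the log2 fold change of −0.29 ± 0.13 did not pass (adjusted p = 0.127 by edgeR). On the HFD the values were 493, 449.5, 412, 445 and 484 CPM in WT and 313, 289, 456, 462 and 399.7 CPM in Adn-Lpin1-/- livers, which overlapped (−0.25 ± 0.13, adjusted p = 0.17 by edgeR).

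In all, 3 of the 10 genes did not overlap between genotypes on the LFD (Baat, Abcb11 and Slco1a1), against 10.1% of all genes tested, and 2 of the 10 on the HFD (Slc10a1 and Slco1a1), against 11.4%. For each of these an exact two-sided permutation test on log2 CPM gave p = 0.0079, the smallest that 5 mice against 5 allow. Groups without overlap always give this value, so it adds nothing to the lack of overlap.

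Nr1h4 encodes FXR, the bile acid receptor (GRCm38 chr10:89454234-89533585, minus strand). It ran from 119.7 to 178 CPM in WT and from 102 to 153 CPM in Adn-Lpin1-/- livers on the LFD, and from 129.8 to 164 and from 97.8 to 134 CPM on the HFD. The log2 fold changes were close to each other, −0.24 ± 0.11 on the LFD (adjusted p = 0.181 by edgeR) and −0.25 ± 0.11 on the HFD (adjusted p = 0.13 by edgeR), and neither passed. With the pools added, which repeat the same mice, Nr1h4 passed on the HFD (−0.27, adjusted p = 0.0339 by edgeR).

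Nr0b2 encodes SHP, a receptor without a DNA-binding domain that represses Cyp7a1 and Cyp8b1 (GRCm38 chr4:133553376-133556536, plus strand). On the LFD it was at 58.4, 51.1, 52.1, 34.5 and 33.0 CPM in WT and 36.4, 27.3, 31.7, 31.4 and 57.3 CPM in Adn-Lpin1-/- livers, with Adn-Lpin1-/- mouse 5 next to the highest WT mouse (−0.31 ± 0.27, adjusted p = 0.461 by edgeR). On the HFD it was at 27.5, 28.0, 14.8, 29.6 and 31.4 CPM in WT and 37.2, 33.4, 43.0, 38.7 and 13.5 CPM in Adn-Lpin1-/- livers. There 4 Adn-Lpin1-/- mice lay above all WT mice and mouse 5 below them all (0.34 ± 0.27, adjusted p = 0.398 by edgeR). The 2 mice with the lowest Nr0b2, WT HFD mouse 3 and Adn-Lpin1-/- HFD mouse 5, were the mice with the highest Cyp7a1 of their groups.

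Diet alone moved few of these genes. In WT mice none of the 10 was called between HFD and LFD by edgeR, against 1.10% of all genes, while 3 of the 10 had an unadjusted p under 0.05 (Cyp7a1, Slc10a1 and Nr0b2), as had 15.8% of all genes. DESeq2 also called none, voom with quality weights called Nr0b2, and adding the pools, which hold the same mice again and are not independent of them, called Nr0b2 and Slc10a1. Cyp7a1 was higher in mean on the HFD (143 ± 38.0 against 68.6 ± 29.4 CPM, SD, n = 5), with WT LFD mouse 4 inside the HFD range (log2 fold change 1.06 ± 0.43, adjusted p = 0.226 by edgeR). Nr0b2 was lower in all 5 HFD mice (14.8 to 31.4 CPM) than in any LFD mouse (33.0 to 58.4 CPM), 1 of the 10 genes without overlap against 3.73% of all genes, with a log2 fold change of −0.80 ± 0.27 (adjusted p = 0.152 by edgeR). Slc10a1 had a log2 fold change of −0.28 ± 0.09 (adjusted p = 0.149 by edgeR).

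In Adn-Lpin1-/- mice Baat was the only 1 of the 10 called between diets, against 2.46% of all genes. It rose by 0.36 ± 0.07 on the log2 scale on the HFD (adjusted p = 0.0151 by edgeR), from 121 to 151 CPM on the LFD to 151 to 185 CPM on the HFD, with 4 of 5 HFD mice above all LFD mice. Slc10a1 lay lower in all 5 HFD mice than in any LFD mouse, where 4.06% of all genes did not overlap, and missed the threshold (−0.33 ± 0.09, adjusted p = 0.0664 by edgeR), as did Slco1a1 (−0.37 ± 0.12, adjusted p = 0.109 by edgeR). Slc10a1 passed without Adn-Lpin1-/- LFD mouse 5 (−0.38, adjusted p = 0.0359 by edgeR) or WT LFD mouse 5 (−0.34, adjusted p = 0.0377 by edgeR), and Slco1a1 passed without Adn-Lpin1-/- LFD mouse 5 (−0.47, adjusted p = 0.0242 by edgeR). With all mice both passed with the pools added and by DESeq2 (adjusted p = 0.0176 for Slc10a1 and 0.0457 for Slco1a1 by DESeq2). The Baat call was lost when only the 2 groups compared entered the fit (0.35, adjusted p = 0.0806 by edgeR). With library totals 254 genes were called higher and 102 lower, against 156 and 165 with TMM. The diet comparisons share their libraries with the genotype comparisons.

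No difference between the genotype effects on the 2 diets passed the test. edgeR called 0 of 13052 genes (0%) for the genotype by diet term, with 938 genes at an unadjusted p under 0.05. DESeq2 called 30, none of them among the 10. Baat had the smallest p of the 10 (0.33 ± 0.11, unadjusted p = 0.0056, adjusted p = 0.518 by edgeR), then Nr0b2 (0.65 ± 0.38, adjusted p = 0.766 by edgeR). For Cyp7a1 (−0.28 ± 0.60) and Slco1a1 (−0.15 ± 0.17) the difference between diets was within 1 SE of 0.

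The promoter windows of 2 members hold the core motif CAAGGNCA of LRH-1, the product of Nr5a2, a nuclear receptor known to drive Cyp7a1 and Cyp8b1 and to be held back by SHP. The third carries an inverted repeat of nuclear receptor sites with 1 base between them, the kind of site through which FXR is known to act on Abcb11. These genes belong to the feedback from FXR and SHP described above. Of the members with a window, only they hold either motif, and only their windows are shown. The windows of Cyp27a1, Nr1h4, Slc10a1 and Slco1a1 hold neither. The windows run from 250 bases before the annotated start to 50 after it, 5′ to 3′ on the gene's strand, from RefSeq on GRCm38.p6, with the motif match in capitals.
Cyp8b1, chr9:121916256-121916555, minus strand: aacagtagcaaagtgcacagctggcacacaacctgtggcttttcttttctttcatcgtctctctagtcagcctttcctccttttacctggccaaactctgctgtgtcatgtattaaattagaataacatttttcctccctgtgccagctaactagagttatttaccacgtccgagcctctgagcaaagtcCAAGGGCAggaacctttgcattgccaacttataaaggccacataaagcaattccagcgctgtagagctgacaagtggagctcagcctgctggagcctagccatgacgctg
Nr0b2, chr4:133553126-133553425, plus strand: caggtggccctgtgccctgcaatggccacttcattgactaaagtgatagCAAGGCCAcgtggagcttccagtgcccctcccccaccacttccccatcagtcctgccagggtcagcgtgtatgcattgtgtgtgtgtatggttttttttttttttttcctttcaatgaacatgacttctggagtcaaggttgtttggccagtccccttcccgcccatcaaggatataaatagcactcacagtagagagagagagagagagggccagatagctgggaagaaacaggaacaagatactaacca
Abcb11, chr2:69342567-69342866, minus strand: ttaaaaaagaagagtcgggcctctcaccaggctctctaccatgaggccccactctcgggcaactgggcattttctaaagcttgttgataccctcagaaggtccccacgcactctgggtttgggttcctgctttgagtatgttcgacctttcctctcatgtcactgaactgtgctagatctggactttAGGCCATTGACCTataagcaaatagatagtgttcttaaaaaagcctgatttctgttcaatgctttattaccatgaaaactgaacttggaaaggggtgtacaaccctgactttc

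Both strands were searched. CAAGGNCA began 60 bases before the Cyp8b1 start and 201 bases before the Nr0b2 start, and 6.71% of all 32851 promoter windows hold it. The inverted repeat, made of AGNNCA and TGNNCT, began 63 bases before the Abcb11 start and is in 0.731% of all windows, and its last base is the first of a TATAA. Windows were given for 7 of the 10 genes, and not for Cyp7a1, Cyp7b1 and Baat. TATAA, on either strand, was in the windows of Abcb11, Nr0b2, Slco1a1, Cyp8b1 and Slc10a1 and in 24.9% of all windows. These matches are descriptions of sequence and binding was not measured.

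Further bile acid genes were read from 4 lists. Over all genes 14.4% were called on the LFD (8.11% lower) and 18.6% on the HFD (8.78% lower). Of 18 tested enzymes of synthesis beyond the members, 6 were lower in Adn-Lpin1-/- livers on the LFD and none higher, and on the HFD the same 6 were lower and 1 was higher. The list medians were −0.060 and −0.045 on the log2 scale, since most other enzymes lay near 0.

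Cyp2c70, which makes the muricholic acids particular to rodents, was the most changed of the 6. It was at 185.7 to 600.7 CPM in WT and 120.1 to 327 CPM in Adn-Lpin1-/- livers on the LFD (−1.04 ± 0.31, adjusted p = 0.0307 by edgeR). On the HFD it was at 229.8 to 402 CPM in WT and 84.8 to 213 CPM in Adn-Lpin1-/- livers, without overlap (−1.10 ± 0.31, adjusted p = 0.0202 by edgeR). The LFD call was lost without Adn-Lpin1-/- LFD mouse 2, 4 or 5 or WT LFD mouse 2, 3 or 4, and the HFD call without Adn-Lpin1-/- HFD mouse 1 or 2.

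The steroid 5β-reductase Akr1d1, which shapes the sterol ring, fell on both diets, with log2 fold changes of −0.74 ± 0.13 on the LFD (127 ± 17.7 to 76.3 ± 4.27 CPM, SD, n = 5) and −0.37 ± 0.13 on the HFD. The aldo-keto reductases Akr1c14 (−0.72 and −0.43 on the 2 diets) and Akr1c6 (−0.45 and −0.31) also fell on both diets. So did Slc27a5, the bile acid-CoA ligase that works before Baat (−0.41 and −0.24), and Amacr, the racemase of the side chain (−0.33 and −0.22). The adjusted p-values of these 5 by edgeR ran from 0.00035 to 0.0023 on the LFD and from 0.0149 to 0.0459 on the HFD. On the HFD the enzyme called higher was Cyp46a1, the cholesterol 24-hydroxylase, at 2.08 to 5.74 CPM in WT and 6.47 to 12.5 CPM in Adn-Lpin1-/- livers (1.32 ± 0.45, adjusted p = 0.0482 by edgeR). The HFD calls of Cyp46a1, Akr1d1, Akr1c14 and Amacr were each lost without any 1 of several mice, and those of Slc27a5 and Akr1c6 were not. With library totals in place of TMM the LFD calls were the same 6, and on the HFD Cyp2c70 and Cyp46a1 remained called. With the GC content and length trend removed Cyp2c70 lost its LFD call, while Amacr, Cyp2c70 and Slc27a5 alone were called on the HFD. With only the groups compared Cyp2c70, Cyp46a1 and Slc27a5 were called on the HFD, so Akr1c6 was lost in both of these fits.

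**Figure D3:**
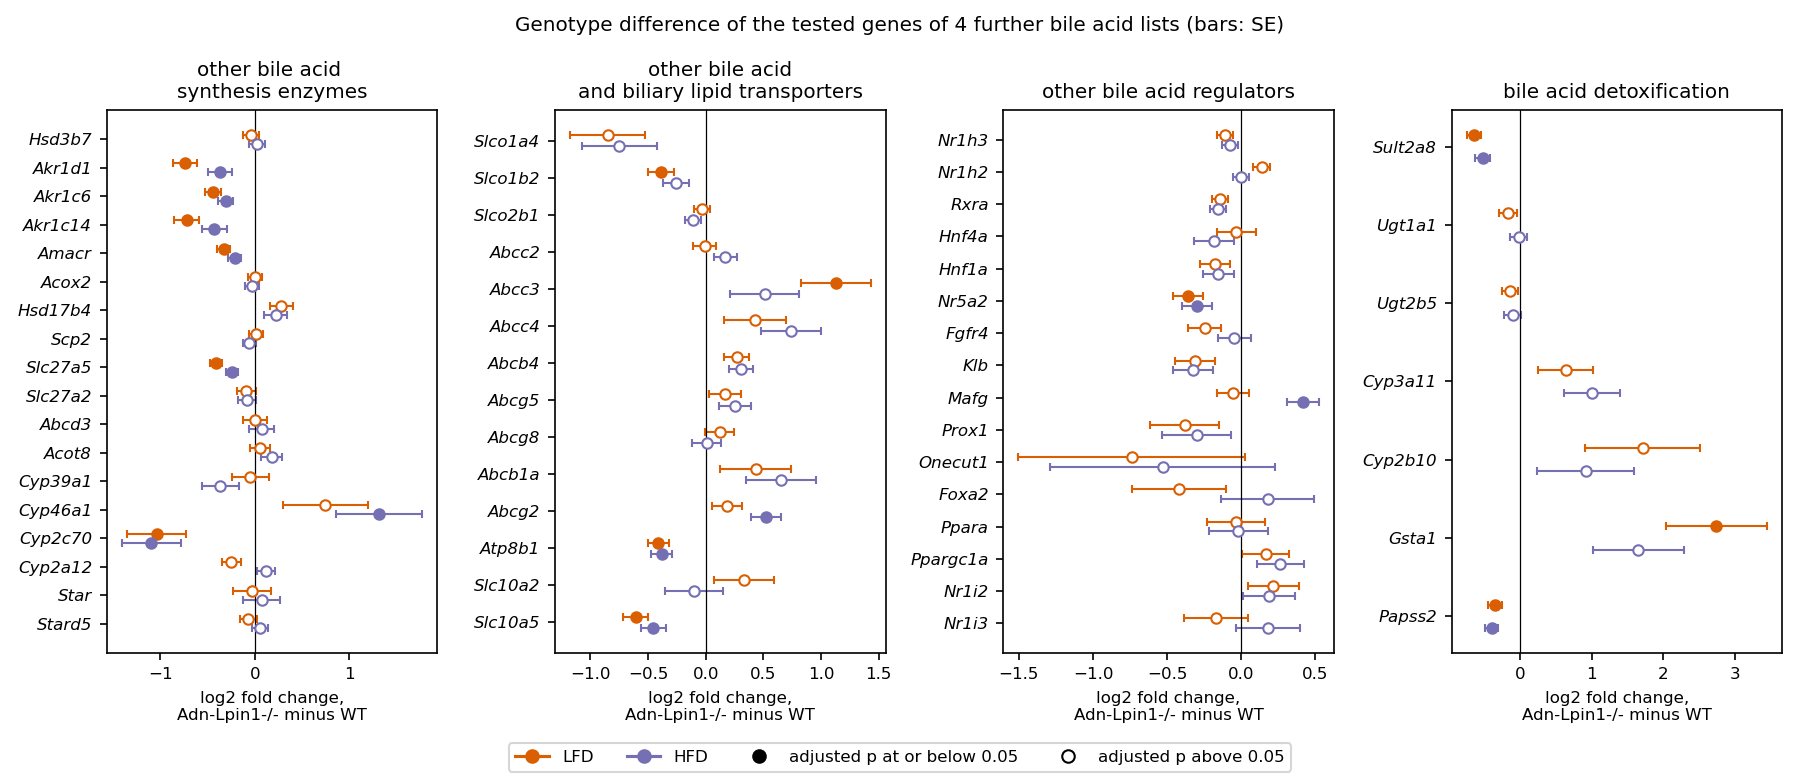
Log2 fold change, Adn-Lpin1-/- minus WT, with its standard error for every tested gene of 4 further bile acid lists on the LFD and the HFD, filled where the adjusted p was 0.05 or less. Cyp2c70 lies near −1 on both diets (−1.04 and −1.10), Abcc3 at 1.13 on the LFD, and most regulators within 0.5 of 0.

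Of 14 tested transporters of bile acids and biliary lipids, 3 were lower and 1 higher on the LFD, against 14.4% of all genes called. On the HFD 2 were lower and 1 higher, against 18.6%. Slc10a5, a relative of Slc10a1, was lower on both diets (−0.61 ± 0.11 and −0.46 ± 0.11, adjusted p = 0.0012 and 0.0074 by edgeR), as was Atp8b1, the flippase of the canalicular membrane (−0.41 ± 0.09 and −0.38 ± 0.09, adjusted p = 0.0049 and 0.0068 by edgeR). Slco1b2, another importer, was lower on the LFD (−0.38 ± 0.11, adjusted p = 0.0284 by edgeR) and had −0.26 ± 0.11 on the HFD (adjusted p = 0.12 by edgeR). Its LFD call was lost without WT LFD mouse 5 or Adn-Lpin1-/- LFD mouse 1, 2 or 3, with the replicate block and with the GC content and length trend removed.

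The transporters called higher face other membranes or cargo. Abcc3, the MRP3 pump that returns bile acids to blood, rose on the LFD from 123 ± 58.7 to 269 ± 102 CPM (SD, n = 5, 1.13 ± 0.30, adjusted p = 0.0164 by edgeR), and was at 0.51 ± 0.30 on the HFD (adjusted p = 0.24 by edgeR). The Abcc3 call was lost without Adn-Lpin1-/- LFD mouse 5. Abcg2, an efflux pump of broad range, rose on the HFD (0.52 ± 0.13, adjusted p = 0.0107 by edgeR). With library totals Abcb4, Abcc2, Abcc4 and Abcg5 were also called higher on the HFD, with Abcb4 higher on the LFD too, while Slco1b2 was not called on the LFD nor Atp8b1 on the HFD. Abcb4 and Abcc4 were also called higher on the HFD by DESeq2, with the pools added and without Adn-Lpin1-/- HFD mouse 4. Voom with quality weights called Abcc4 higher and Slco1a4 and Slco1b2 lower on the HFD. Slco1a4 was also called lower there with the pools added and without Adn-Lpin1-/- HFD mouse 4.

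Of 16 tested regulators 1 was lower on the LFD, against 14.4% of all genes called, and 1 lower and 1 higher on the HFD, against 18.6%. Nr5a2 was called lower on both diets (−0.36 ± 0.10 and −0.30 ± 0.10, adjusted p = 0.0202 and 0.0412 by edgeR). It was at 37.2 to 49.3 CPM in WT and 29.0 to 36.8 CPM in Adn-Lpin1-/- livers on the LFD, without overlap, and was not called with library totals on either diet. It was also lost on the LFD without WT LFD mouse 5, and on the HFD without Adn-Lpin1-/- HFD mouse 1, 2 or 3 or WT HFD mouse 1, 2, 3 or 4, with no filter on low counts, with only the groups compared, with the replicate block and with the GC content and length trend removed. Mafg, a repressor induced through FXR, rose on the HFD (0.42 ± 0.11, adjusted p = 0.0111 by edgeR), a call lost with the GC content and length trend removed, and was at −0.06 ± 0.11 on the LFD (adjusted p = 0.764 by edgeR).

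Hnf4a, a main hepatocyte factor, did not pass on either diet (−0.03 ± 0.13 and −0.18 ± 0.13, adjusted p = 0.9 and 0.358 by edgeR). Neither did Fgfr4 and Klb, the receptor and co-receptor of the gut hormone FGF15. Fgfr4 was at −0.25 ± 0.11 and −0.05 ± 0.11 on the 2 diets and Klb at −0.31 ± 0.13 and −0.32 ± 0.13. Fgfr4 was called lower on the LFD with the GC content and length trend removed, and Klb on the HFD with only the groups compared, with the pools added and without WT LFD mouse 5. These 3 were named after their values were seen.

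Of 7 tested genes of detoxification 2 were lower and 1 higher on the LFD and 2 lower on the HFD, against 14.4% and 18.6% of all genes called. Sult2a8, a bile acid sulfotransferase, fell on both diets (−0.65 ± 0.10 and −0.53 ± 0.10, adjusted p = 0.00034 and 0.0019 by edgeR), without overlap, from 494 to 594 CPM in WT to 336 to 371 CPM in Adn-Lpin1-/- livers on the LFD. Papss2, which supplies its sulfate donor, fell too (−0.35 ± 0.10 and −0.40 ± 0.10, adjusted p = 0.0195 and 0.0078 by edgeR). Gsta1 rose on the LFD from low levels, at most 0.986 CPM in WT and 0.587 to 6.70 CPM in Adn-Lpin1-/- livers (2.74 ± 0.70, adjusted p = 0.0134 by edgeR), and its reads cannot be told apart with certainty from those of close relatives. The LFD calls of Gsta1 and Papss2 were lost without Adn-Lpin1-/- LFD mouse 5, and that of Papss2 also without Adn-Lpin1-/- LFD mouse 2 or WT LFD mouse 4 and with library totals. With library totals Gsta1 and Cyp3a11 were called higher on the HFD.

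Between diets none of these further bile acid genes was called by edgeR in WT mice, and Akr1c14 alone was called in Adn-Lpin1-/- mice, where it was higher on the HFD (0.58 on the log2 scale). The shares of all genes called were 1.10% in WT and 2.46% in Adn-Lpin1-/- mice.

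Some markers of cell types were also called between genotypes. In bulk liver, fewer cells of a type and less RNA per cell cannot be told apart. Among 10 hepatocyte markers 2 were called lower in LFD-fed Adn-Lpin1-/- mice, 5 in HFD-fed ones, and none higher. Over all genes 8.11% were called lower on the LFD and 8.78% on the HFD. Their summed level was 116286 to 124812 CPM in WT and 85511 to 111254 CPM in Adn-Lpin1-/- livers on the LFD, and 106477 to 135015 and 89103 to 116185 CPM on the HFD. No defining hepatocyte marker was at 0.

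Pericentral hepatocytes are the cells in which Cyp7a1 is known to be richest. Of 9 tested pericentral markers 2 were called lower on the LFD (Cyp1a2 and Slc1a2) and 3 on the HFD (Cyp2e1, Oat and Slc1a2), with summed levels of 9928 to 12874 CPM in WT and 8099 to 9899 CPM in Adn-Lpin1-/- livers on the LFD, and of 10106 to 15169 and 8269 to 11035 CPM on the HFD. Of 10 periportal markers 1 was lower on the LFD and none on the HFD. The part of these shifts in the members' values was not tested.

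Several markers of other cell types were called higher in Adn-Lpin1-/- livers, where 14.4% of all genes were called in either direction on the LFD and 18.6% on the HFD. Of 10 stellate cell markers 4 were higher on the LFD, and 3 higher and 1 lower on the HFD, with summed levels of 189.6 to 375 CPM in WT and 360.0 to 613 CPM in Adn-Lpin1-/- livers on the LFD, and 331 to 440.3 and 354 to 628 CPM on the HFD. Endothelial markers were called higher for 4 of 8 and 6 of 8, and macrophage markers for 0 of 10 and 6 of 10. Endothelial markers summed to 109.6 to 186 CPM in WT and 166 to 305 CPM in Adn-Lpin1-/- livers on the LFD, and to 133 to 203 and 214 to 259 CPM on the HFD. Macrophage markers summed to 117 to 215 and 147 to 292 CPM on the LFD, and to 143 to 182 and 187 to 434 CPM on the HFD. Adipocyte markers were called higher for 2 of 4 tested on each diet (Cfd and Fabp4). Adipoq, Lep, Retn and Plin1 did not pass the filter on low counts and were not tested. Retn was at 0 in the WT LFD group and Plin1 in the Adn-Lpin1-/- LFD group. Of 8 tested cholangiocyte markers none was called on the LFD and 1 was higher on the HFD. Their part in the bile acid values was not tested.

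Slco1a1 and Cyp7b1 are among the genes known to differ between male and female mouse liver. Of 14 male-biased genes, 3 were called lower on the LFD (Hsd3b5, Susd4 and Ugt2b1) and 5 lower and 1 higher on the HFD. The shares of all genes called were 14.4% on the LFD (8.11% lower) and 18.6% on the HFD (8.78% lower). Of 14 female-biased genes 9 were tested, and none was called on either diet. Their list medians on the log2 scale were nevertheless positive, 0.40 (LFD, 5 genes up and 4 down) and 1.03 (HFD, 6 up and 3 down). Those of the male-biased list were −0.42 and −0.25. Synthesis of bile acids also follows the clock. Of 15 tested clock genes 4 were lower in the LFD comparison, 3 in the HFD comparison, and Clock, Nr1d2 and Dbp in both. These counts stand beside the same 8.11% and 8.78% of all genes called lower. By the study's methods all mice were fasted from the same morning hour for the same time, which does not give the hour at which each liver was taken. The part of time of day in the bile acid values was not tested.

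Mice of 1 group differed among themselves in related ways. After the group means were removed, Cyp7a1 and Nr0b2 had a Pearson r of −0.59 over the 20 mice, and Cyp8b1 and Cyp7b1 of −0.66. Cyp7b1 and Slco1a1 had an r of 0.67, and Cyp27a1 and Slco1a1 of 0.62. These 4 are the extremes of 45 pairs, the points share libraries and scaling, and they are given as descriptions without a test.

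**Figure D4:**
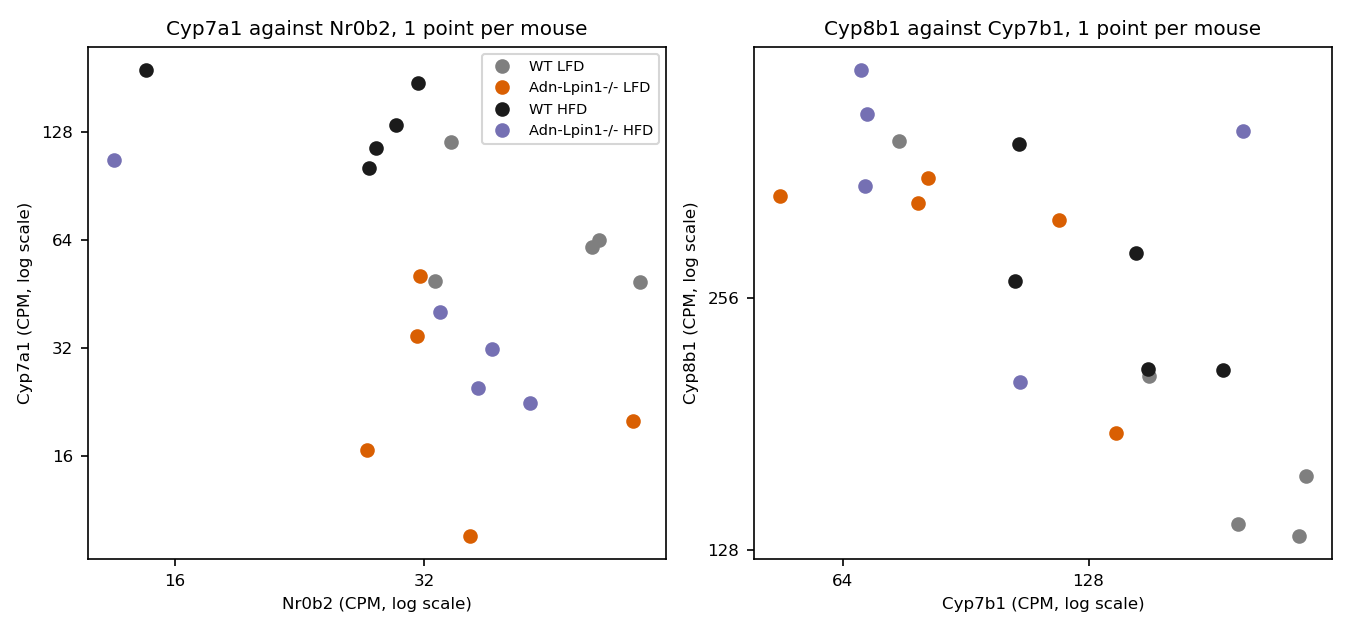
Cyp7a1 against Nr0b2 and Cyp8b1 against Cyp7b1 (CPM, log axes), with 1 point per mouse coloured by group. WT HFD mouse 3 and Adn-Lpin1-/- HFD mouse 5 stand at the left of the first panel with the lowest Nr0b2 (14.8 and 13.5 CPM), and Adn-Lpin1-/- HFD mouse 5 stands off the downward slope of the second at 198 CPM of Cyp7b1 and 406 CPM of Cyp8b1.

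The genes whose log2 CPM followed each of 3 members most closely over the 20 mice were named by Pearson r. They were picked as the highest among the 13052 genes tested, share libraries and scaling with the members, and are given as descriptions without a test. For Cyp7a1 they were G3bp1 (0.87), Zfp760 (0.86) and Kcnk10 (0.85). For Cyp8b1 they were Rtn4ip1 (0.90), Dlst (0.89) and Gnptab (0.88), with an r of 0.86 to 0.89 in the same mice once group means were removed. For Slco1a1 they were Dmxl1 (0.92), Matr3 (0.90) and Cyp4f14 (0.90), which dropped to 0.74, 0.54 and 0.63.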

How the data were processed

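RNA was poly-A selected from single livers (20 mice) and from 1 pool of the same mice per group. Per the labels and the study's methods, the authors aligned reads with STAR 2.5.1a to GRCm38 with Ensembl gene models and deposited raw gene counts of uniquely aligned, unambiguous reads from featureCounts 1.4.6-p5, whose strand setting is not given in the sources used here. The authors also deposited CPM and RPKM values, which were not used, and CPM and RPKM in the text were computed from the counts. The 355 rRNA genes were removed, TMM scaling applied and genes kept where 4 or more of the 20 mice exceeded 1 CPM. Symbols were matched for 97.3% of gene IDs. One edgeR 4.0.16 quasi-likelihood fit over the 4 groups (R 4.3.3), with Benjamini-Hochberg adjustment at 0.05, gave every comparison, and pools were left out, since they hold the same mice. The fit was tested on simulated data. The p-values test differences between groups against the spread between mice. Members and lists were chosen with earlier results of these data known. Members, called genes of the bile acid lists and the 3 genes most like Cyp7a1, Cyp8b1 and Slco1a1 were named. Alternatives were DESeq2 1.42.0, limma 3.58.1 voom with quality weights, other scalings and filters, the pools, a replicate block, a GC and length correction, thinning to 36119123 counts and leaving out each mouse. Library totals without TMM were added after the data were seen. Total counts of 36260187 to 81072794 put counting error well under the spread between mice.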

Additional observations from a re-analysis of the deposited data

Results flagged for a closer look

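In 6 of the 40 sets of 5 mice (10 genes in 4 groups) 1 mouse stood apart from the other 4 by Dixon's ratio above its 95% critical value, and chance flags about 1 in 20. Cyp7a1 stood apart in WT LFD mouse 4 (119.7 CPM, highest) and in Adn-Lpin1-/- HFD mouse 5 (107 CPM, highest). Cyp8b1 stood apart in WT LFD mouse 5 (395 CPM, highest) and in Adn-Lpin1-/- LFD mouse 1 (176 CPM, lowest). Abcb11 stood apart in WT LFD mouse 2 (599.6 CPM, highest) and Nr0b2 in WT HFD mouse 3 (14.8 CPM, lowest). No reason for these values was tested.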

How the results depend on the processing

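Slco1a1 on both diets, Cyp7a1 on the HFD and Baat on the LFD kept their direction and call under all 11 other fits and without any 1 mouse. With the pools as sixth libraries, which repeat the same mice, the members called numbered 5 on the LFD, 2 between diets in WT and 3 in Adn-Lpin1-/- mice, and all genes called numbered 3017 (LFD), 3781 (HFD), 686 (diet in WT), 959 (diet in Adn-Lpin1-/-) and 4 (genotype by diet). With voom 5 members were called on the LFD (Baat, Cyp7a1, Cyp7b1 and Slco1a1 lower, Cyp8b1 higher) and 1 between diets in WT, where 670 genes were called. DESeq2 called 3 members between diets in Adn-Lpin1-/- mice, and 400, 577 and 30 genes for diet in WT, diet in Adn-Lpin1-/- and genotype by diet. With only the groups compared 0 members were called between diets in Adn-Lpin1-/- mice, with 161 genes, and 72 genes in WT. Library totals left 2 members called on the HFD. The cause of these shifts was not tested. Without 1 mouse, members called ran from 2 to 5 on the LFD, 2 to 4 on the HFD and 1 to 3 between diets in Adn-Lpin1-/- mice, and genes called from 1208 to 1954, 1477 to 2750, 55 to 289 (diet in WT) and 123 to 383 (diet in Adn-Lpin1-/-).

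Values near 0 changed sign. Baat on the HFD was 0.099 with the GC and length trend removed, 0.0028 with voom and 0.12 with library totals, and −0.041 to 0.039 without 1 mouse. Abcb11 for diet in WT was 0.0080 without a filter and 0.0091 with library totals. With voom, for diet in Adn-Lpin1-/- mice, Cyp7b1 was −0.011 and Abcb11 −0.017. Nr1h4 for genotype by diet was 0.020 with the GC and length trend removed and 0.016 with library totals. Without 1 mouse the ranges were −0.0046 to 0.055 (Baat, diet in WT), −0.049 to 0.11 (Abcb11, diet in WT), and in Adn-Lpin1-/- mice −0.28 to 0.28 (Cyp7b1), −0.049 to 0.12 (Abcb11) and −0.26 to 0.065 (Nr0b2), and for genotype by diet −0.88 to 0.10 (Cyp7a1), −0.51 to 0.033 (Cyp8b1), −0.085 to 0.13 (Abcb11) and −0.11 to 0.054 (Nr1h4).

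Mice with the same number did not deviate together (mean r −0.023 over 30 pairs, 0.0056 over 120 other pairs), so the numbers were not taken as pairing. With the replicate block 90 genes were called for diet in WT, and 3 and 4 members on the LFD and HFD. It lost Cyp2c70 and Slco1b2 on the LFD and Akr1d1 and Nr5a2 on the HFD.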
